A study of Homo sapiens with 10 samples.

Results

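Messenger RNA of 40 genes of ribosome biogenesis and of the nucleolus was followed through 10 libraries of multiple myeloma cells, of 58229 genes in the deposited expression table. The 40 genes were chosen by symbol, as processing factors of the nucleolus, RNA polymerase I genes and the polyamine genes ODC1 and SRM, all known as targets of the transcription factor MYC. Earlier results of these data were known when they were chosen. All 40 were found in the table by their Ensembl identifiers and all 40 had a mean of at least 1 FPKM, the filter for testing (FPKM, fragments scaled by transcript length and library total). The cells were of 2 human myeloma lines, H929 and a line labelled OCI, with no statement in the labels of which OCI line it was. Each line gave 1 library of wild-type cells, 1 of AIMP1 overexpression, 1 of cells treated with protein (AIMP1, per the series title) and 2 of AIMP1 knockdown. AIMP1 holds aminoacyl-tRNA synthetases together in a large complex and can also be secreted as a cytokine. How the knockdown and overexpression were made, and the dose and time of the protein, are not given in the sources used here. The labels name myeloma cells, but their protocol text also speaks of adipose material. Of 10 plasma cell markers, 8 or 9 stood at 1 FPKM or more in every library, and of 8 adipocyte markers 3 (LIPE, CFD and PPARG) did so, with a summed level of 39.8 to 69.1 FPKM over the 8. The adipocyte genes FABP4 and LEP were listed at 0 in 9 of the 10 libraries. Of 10 myeloid markers, 4 stood at 1 FPKM or more in OCI protein and in OCI knockdown 1, 3 in OCI overexpression and 1 in OCI wild type. Their summed levels were 17.6, 9.88, 8.07 and 3.28 FPKM. Of 10 stromal and endothelial markers, 0 were listed at 0 in OCI protein and OCI knockdown 1, against 7 in OCI wild type. Of 10 T and NK cell markers, 1 and 2 were so listed, against 8. The source of this RNA was not tested.

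Ribosomes are assembled in the nucleolus, where RNA polymerase I transcribes the ribosomal RNA precursor. Small nucleolar RNAs with their proteins guide its chemical modification, and assembly factors fold, cut and export the precursors of the small and large subunits. Polyamines are small cations that bind RNA and are made in quantity by dividing cells. MYC is a main driver of these genes and of growth in myeloma, in which plasma cells also bear a high load of antibody synthesis.

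MYC binds, with its partner MAX, the DNA motif CACGTG, called an E-box. Of the 40 genes, 35 matched the RefSeq promoter table (GRCh38.p14, 250 bases before to 50 after a start site). CACGTG, which reads the same on both strands and was searched for exactly, was present in a window of 18 of the 35 genes (51.4%), of 8.77% of 27305 genes in that table and of 13.1% of 8936 tested coding genes. CACGCG, searched on both strands, was present in 10 of the 35 (28.6%), against 13.5% of all genes in the table and 23.0% of the tested coding genes. The 2 motifs differ at 1 base and cannot occupy the same position. Windows of 4 genes are shown 5′ to 3′ on the gene's strand with CACGTG in capitals. RRP9, UTP20 and ODC1 were among the genes lowest after protein, and NOP10 carried the motif but was not lower. NOP16, NIP7, POLR1B and NCL, not shown, were as low after protein with no CACGTG in their windows. The RRP9 window (chr3:51941855-51942154, minus strand) has the motif at 5 bases before the start. That of UTP20 (chr12:101279855-101280154, plus strand) has it at 10 bases before the start. The second listed start of ODC1 (chr2:10447963-10448262, minus strand) has 2 motifs, on both sides of the start. The window of the first listed start of ODC1 has none. NOP10 (chr15:34343087-34343386, minus strand) has 2 motifs, at 170 and 11 bases before the start.
RRP9: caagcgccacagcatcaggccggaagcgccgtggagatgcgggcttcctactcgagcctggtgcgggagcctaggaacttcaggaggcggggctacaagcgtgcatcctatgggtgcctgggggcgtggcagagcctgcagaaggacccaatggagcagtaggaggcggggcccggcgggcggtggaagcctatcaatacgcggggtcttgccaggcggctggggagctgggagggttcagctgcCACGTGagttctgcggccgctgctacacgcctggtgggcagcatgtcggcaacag
UTP20: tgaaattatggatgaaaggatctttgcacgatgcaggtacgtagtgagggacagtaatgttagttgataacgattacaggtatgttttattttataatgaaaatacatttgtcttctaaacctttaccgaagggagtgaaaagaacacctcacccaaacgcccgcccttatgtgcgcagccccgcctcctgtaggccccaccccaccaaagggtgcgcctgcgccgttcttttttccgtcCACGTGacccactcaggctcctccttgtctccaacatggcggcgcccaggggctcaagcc
ODC1: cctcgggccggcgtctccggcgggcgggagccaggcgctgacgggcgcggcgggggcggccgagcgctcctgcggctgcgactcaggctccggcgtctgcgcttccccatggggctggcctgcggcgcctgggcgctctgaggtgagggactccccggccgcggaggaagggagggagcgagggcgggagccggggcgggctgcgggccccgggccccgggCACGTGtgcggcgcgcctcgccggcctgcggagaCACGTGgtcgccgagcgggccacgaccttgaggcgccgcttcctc
NOP10: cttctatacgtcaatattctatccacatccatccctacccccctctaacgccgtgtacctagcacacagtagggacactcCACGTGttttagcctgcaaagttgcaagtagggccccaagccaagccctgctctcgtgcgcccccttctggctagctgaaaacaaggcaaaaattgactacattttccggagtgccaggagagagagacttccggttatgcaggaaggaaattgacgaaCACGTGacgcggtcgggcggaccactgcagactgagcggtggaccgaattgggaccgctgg
The median protein change (log2 scale, defined with the results) was -0.89 for the 18 genes with CACGTG and -0.92 for the 17 without. The genes with and without these letters thus had nearly equal medians. A match is a description of the letters in the window, and binding of MYC was not measured.

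AIMP1 itself was listed at 14.5 FPKM in H929 wild type, 62.5 in overexpression and 20.3 in protein. The H929 knockdown libraries stood at 14.2 FPKM for number 1 and 3.55 for number 2. The library labelled H929 knockdown 1 was therefore at 98.2% of wild type, and its AIMP1 mRNA went against the label. In OCI the levels were 14.3 FPKM in wild type, 59.7 in overexpression, 14.4 in protein, 5.03 in knockdown 1 and 2.35 in knockdown 2. The other knockdown libraries were at 24.5%, 35.1% and 16.4% of wild type. Across all 10 libraries, relative depth read from the steps of low values ran from 27.6% of that of OCI wild type (H929 protein) to 100%. Short RNAs, here a list of only 5 genes, held 49.6% (OCI protein) to 80.7% (OCI knockdown 2) of all FPKM. This is a share of length-scaled values and not of fragments, and it matters where values are rescaled to a common sum. The header names of both wild-type columns carry a suffix, ZY, that no other column has and the labels do not explain. What it stands for and the wild-type state cannot be told apart, and every comparison with wild type uses the same 1 library per line.

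Wild-type cells had the highest level of most of the 40 genes in both lines. In H929, 30 of the 40 were highest in wild type, against 18.8% of all 12872 tested genes, and in OCI 21 of the 40 against 18.3%. Differences are given as log2(FPKM + 1) of a library minus that of the wild type of its line, a scale that understates changes of low genes. Of the 40 genes, 17 were below wild type in all 8 other libraries and 15 in 7 of them. FBL, NOP58, NPM1 and RRP12 were below it in 6 libraries and PPAN in 5, whereas NHP2, NOP10 and NOB1 were below it in 3.
The median of the 40 genes in H929 was -1.30 in protein, -0.84 in overexpression, -0.34 in knockdown 1 and -0.39 in knockdown 2. In OCI it was -0.83 in protein, -0.46 in overexpression, -0.05 in knockdown 1 and -1.06 in knockdown 2. The median of all tested genes lay between -0.02 and 0.17 in these libraries. The genes were thus low in the protein libraries of both lines and as low in 1 OCI knockdown library, while the other OCI knockdown library stood near wild type. A level at least 1 log2 unit under wild type was seen for 26 of the 40 genes in H929 protein (5.30% of all tested genes) and for 22 in OCI knockdown 2 (7.39%). In OCI protein it was seen for 13 of the 40 (7.44%), in H929 overexpression for 12 (3.17%), in OCI overexpression for 2 (3.26%, near the share of the 40) and in the other 3 knockdown libraries for 0 (1.05% to 1.43%). The library with the lowest level was most often protein in H929 (28 of the 40, against 19.8% of all tested genes) and knockdown 2 in OCI (28 of the 40, against 21.1%). The order of the AIMP1 levels was not that of these medians. H929 knockdown 1, with AIMP1 at 98.2% of wild type, had a median of -0.34, and OCI knockdown 1, with AIMP1 at 35.1%, had -0.05. In bulk RNA, fewer cells that transcribe a gene and less of its RNA per cell cannot be told apart.

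**Figure D1:**
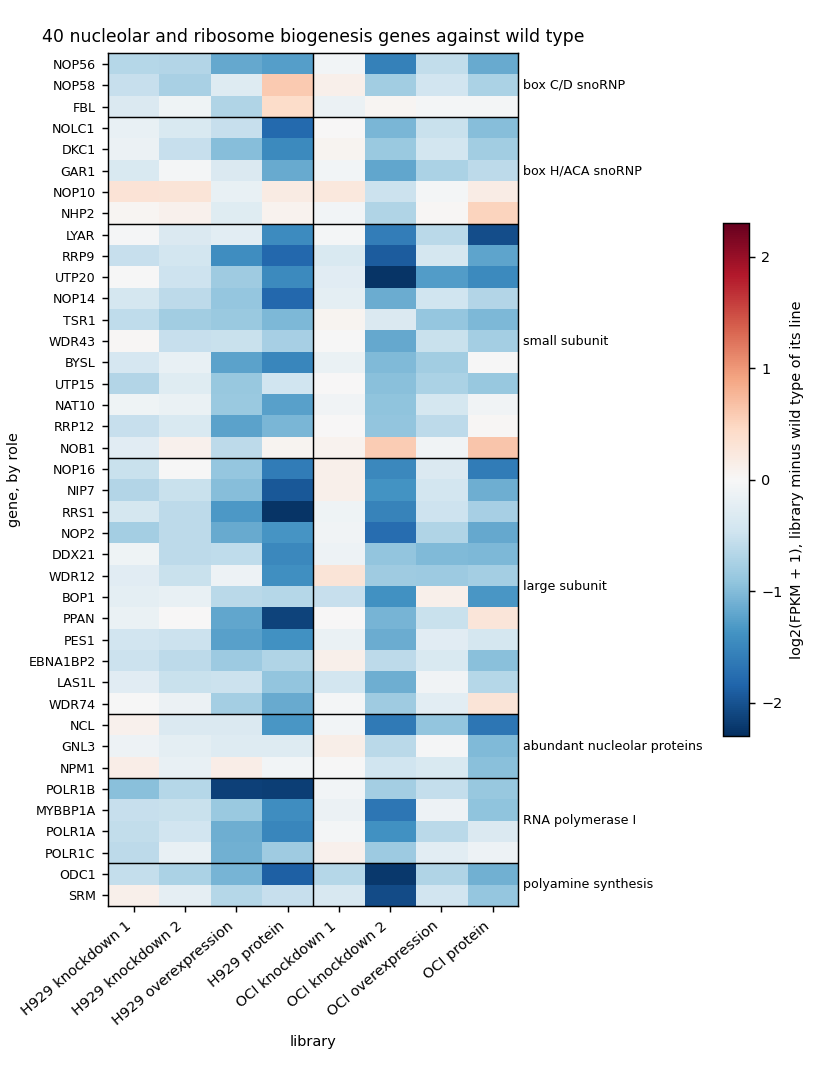
Each cell is log2(FPKM + 1) of 1 library minus the wild type of its line, with the 40 genes in rows by role and the 8 libraries other than wild type in columns. Blue marks values below wild type and fills the H929 protein column except for NOP58, FBL, NOP10, NHP2 and NOB1, and the OCI knockdown 2 column except for FBL and NOB1, while OCI knockdown 1 has a median of -0.05.

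**Figure D2:**
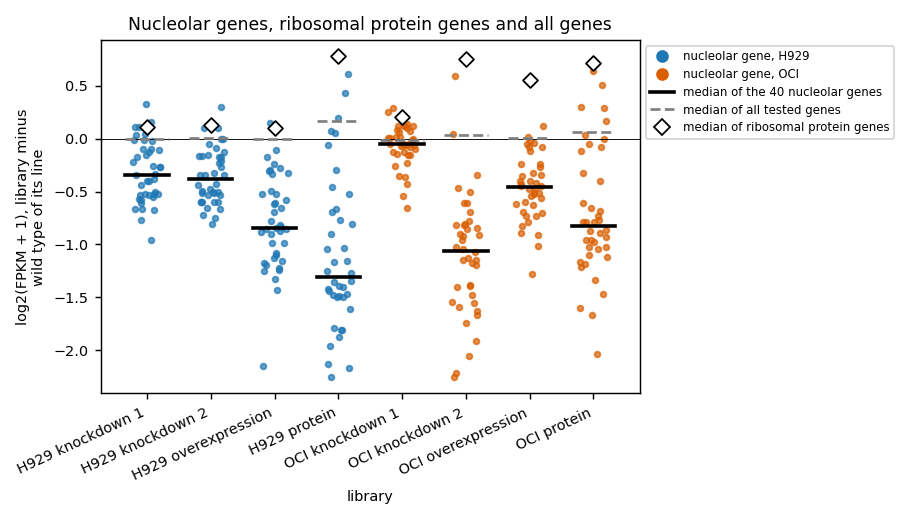
Points are the 40 genes in each library, as log2(FPKM + 1) minus the wild type of the line, black bars are their medians, dashed bars the medians of all 12872 tested genes and diamonds the medians of 79 ribosomal protein genes. The black bars lie under the dashed bars in all 8 libraries, from -0.05 in OCI knockdown 1 to -1.30 in H929 protein, and the diamonds lie above them.

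The protein comparison asked how cells treated with protein differed from untreated wild-type cells. Of the 40 genes, 32 were lower than wild type in both lines, as were 23.7% of all tested genes, and 3 were higher in both, as were 36.7%. Their median change was -0.92, against 0.14 for all tested genes, and 31 of the 40 lay in the lowest 10% of all tested genes. In limma's fit over all 10 libraries, 0 of the 40 genes passed an adjusted p of 0.05, a threshold that 0.0155% of all tested genes passed. An unadjusted p under 0.05 with a lower level was reached by 21 of the 40, against 5.79% of all tested genes, and a higher level with such a p by 0. Because the 40 were chosen with earlier results of these data known, such shares describe the set and are not independent support. Adjusted p-values of the 40 ran from 0.135 to 0.952. The fit rests on few libraries: without OCI knockdown 2, 13 of the 40 passed (442 of all genes did), and the 21 with an unadjusted p under 0.05 became 6 without H929 wild type, 8 without H929 protein and 10 without OCI wild type. For these unadjusted counts without single libraries, the shares of all tested genes are not given here. In another setting the 5 listed short RNAs were taken out, any others stayed in, and values were rescaled to TPM (transcripts per total, which sum to the same in each library). There 32 of 39 passed, but 3237 of 12313 genes did and the median of all genes was -0.73. Relative to the median of all genes, the median of the set was -1.06 with FPKM and -1.18 after that rescaling. H929 protein was also the shallowest library, at 27.6% of the depth of OCI wild type. OCI overexpression, at 27.7%, had a median of -0.46 for the 40 genes, and OCI knockdown 2, at 58.5%, had -1.06. The part of depth in these values was not tested.

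The protein changes of the snoRNP proteins differed by gene. NOP56, a core protein of the box C/D particles that guide ribose methylation, had 115 FPKM in H929 wild type, 72.6 and 72.2 in knockdown 1 and 2, 50.6 in overexpression and 47.4 in protein. The OCI levels were 112 FPKM in wild type, 108 and 37.6 in knockdown 1 and 2, 75.7 in overexpression and 49.6 in protein. Both wild-type libraries were thus above all others, and the protein libraries were at 41.0% and 44.2% of them (log2 change -1.21 ± 0.42, SE, limma adjusted p = 0.186). Its partner NOP58 stood at 153% of wild type in H929 protein and 59.5% in OCI protein. The methyltransferase FBL, listed at only 5.55 to 13.3 FPKM in the 10 libraries, stood at 138% and 95.9%. NOP58 therefore went in opposite directions in the 2 lines, while FBL was higher in H929 protein and close to wild type in OCI protein. Among box H/ACA proteins, which serve pseudouridylation, the pseudouridine synthase DKC1 (35.0% and 57.0% of wild type in H929 and OCI protein), GAR1 (44.2% and 65.4%) and the snoRNP chaperone NOLC1 (28.3% and 50.4%) were lower in both lines. NHP2 and NOP10, the other core proteins of the same particle, were not. NHP2 was listed at 249 FPKM in H929 wild type, 257 and 266 in knockdown 1 and 2, 205 in overexpression and 262 in protein. For OCI the values were 401 FPKM in wild type, 386 and 248 in knockdown 1 and 2, 407 in overexpression and 570 in protein. OCI protein was the highest library, at 142% of wild type, and the H929 libraries lay close together. NOP10 had 139 FPKM in H929 wild type against 159 in protein, and in OCI 170 against 192, with knockdown 1 and 2 at 174 and 171 in H929 and 203 and 120 in OCI, and overexpression at 123 and 166. The changes of NHP2 (0.29 ± 0.31, adjusted p = 0.633) and NOP10 (0.18 ± 0.29, adjusted p = 0.763) were within the error of the fit, and both turned negative with quantile normalization (-0.046 and -0.072) and with both rescalings to TPM.

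Of the 11 factors of the small subunit, 9 were lower in both lines after protein. LYAR, a nucleolar growth regulator, had the lowest change of all 40 genes. It was listed at 14.8 FPKM in H929 wild type, 14.6 and 11.6 in knockdown 1 and 2, 12.4 in overexpression and 4.83 in protein. OCI cells had 17.6 FPKM as wild type, 16.9 and 5.16 in knockdown 1 and 2, 11.1 with overexpression and 3.52 with protein. The protein libraries were the lowest of each line, at 32.6% and 20.1% of wild type (-1.74 ± 0.45, unadjusted p = 0.00296, adjusted p = 0.135). RRP9, which binds the U3 small nucleolar RNA, had 45.5 FPKM in H929 wild type, 31.2 and 33.6 in knockdown 1 and 2, 16.3 in overexpression and 12.2 in protein. Levels in OCI were 43.4 FPKM (wild type), 33.7 and 10.8 (knockdown 1 and 2), 32.6 (overexpression) and 18.1 (protein). Wild type was the highest library in both lines, and the lowest was protein in H929 and knockdown 2 in OCI (protein change -1.51 ± 0.53, adjusted p = 0.191). UTP20, a large scaffold of the small subunit processome, was listed at 7.65 FPKM in H929 wild type, 7.55 and 5.22 in knockdown 1 and 2, 3.93 in overexpression and 2.12 in protein. OCI wild type had 8.90 FPKM, knockdown 1 and 2 had 7.29 and 1.08, overexpression 3.09 and protein 2.58. It was below wild type in all 8 libraries, and down to 12.2% of it in OCI knockdown 2 (protein change -1.47 ± 0.58, adjusted p = 0.219). NOP14 and WDR43, other processome proteins, were at 27.2% and 57.9% of wild type in H929 protein and at 61.6% and 56.9% in OCI protein. BYSL and the RNA acetyltransferase NAT10 were low in H929 protein (33.9% and 40.6%) but close to wild type in OCI protein (99.8% and 94.8%). NOB1, the nuclease that makes the final cut of the small subunit RNA, had 71.9 FPKM in H929 wild type, 59.7 and 77.1 in knockdown 1 and 2, 47.0 in overexpression and 74.9 in protein. The OCI levels were 67.5 FPKM in wild type, 71.5 and 102 in knockdown 1 and 2, 64.0 in overexpression and 106 in protein. The OCI knockdown 2 and protein libraries were the high ones, and the change after protein (0.35 ± 0.27, adjusted p = 0.497) reversed to -0.69 and -0.083 on the 2 TPM scales.

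Of the 12 factors of the large subunit, 10 were lower in both lines after protein. NOP16, an assembly factor, had 94.9 FPKM in H929 wild type, 65.9 and 94.8 in knockdown 1 and 2, 51.0 in overexpression and 30.5 in protein. For OCI the values were 110 FPKM in wild type, 119 and 38.8 in knockdown 1 and 2, 87.4 in overexpression and 35.6 in protein. The protein libraries were the lowest in both lines, at 32.1% and 32.4% of wild type (-1.60 ± 0.47, unadjusted p = 0.00644, adjusted p = 0.154). NOP2, an rRNA methyltransferase, was listed at 73.2 FPKM in H929 wild type, 42.4 and 48.1 in knockdown 1 and 2, 32.4 in overexpression and 28.0 in protein. OCI cells had 64.6 FPKM as wild type, 61.4 and 18.6 in knockdown 1 and 2, 39.6 with overexpression and 27.9 with protein. It was below wild type in all 8 libraries (protein change -1.27 ± 0.45, adjusted p = 0.191). The subunits of the PES1, BOP1 and WDR12 complex, which is needed to process the large subunit RNA, were at 37.4%, 62.5% and 36.4% of wild type in H929 protein. In OCI protein they were at 75.4%, 38.3% and 56.5%. NIP7 (23.8% and 44.6%), RRS1 (19.8% and 58.2%), the helicase DDX21 (34.6% and 48.4%) and the nuclease subunit LAS1L (52.5% and 62.5%) were also lower in both. EBNA1BP2 was listed near the filter, at 0.404 to 1.96 FPKM. PPAN and WDR74 were lower than wild type in H929 protein and higher in OCI protein. WDR74, which had the highest mean of these 12, was listed at 156 FPKM in H929 wild type, 155 and 142 in knockdown 1 and 2, 90.3 in overexpression and 68.8 in protein. Levels in OCI were 100 FPKM (wild type), 97.4 and 56.4 (knockdown 1 and 2), 85.0 (overexpression) and 124 (protein). PPAN, an assembly factor, was at 21.7% of wild type in H929 protein and 122% in OCI protein. Exons of PPAN overlap those of P2RY11 and of a read-through transcript on the same strand, and those of WDR74 overlap RNU2-2P, so part of their values may belong to these neighbours.

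Among the abundant nucleolar proteins, NCL (nucleolin) was listed at 359 FPKM in H929 wild type, 386 and 283 in knockdown 1 and 2, 284 in overexpression and 141 in protein. OCI wild type had 377 FPKM, knockdown 1 and 2 had 362 and 122, overexpression 200 and protein 118. Protein was the lowest library of both lines, at 39.3% and 31.2% of wild type (-1.51 ± 0.44, unadjusted p = 0.00684, adjusted p = 0.156). NPM1 (nucleophosmin), the most abundant of the 40 mRNAs per length, had 618 FPKM in H929 wild type, 688 and 549 in knockdown 1 and 2, 686 in overexpression and 591 in protein. The OCI levels were 928 FPKM in wild type, 926 and 671 in knockdown 1 and 2, 731 in overexpression and 476 in protein. The H929 libraries lay close together, and the OCI values spread more, with protein at 51.3% of wild type (-0.51 ± 0.30, adjusted p = 0.364). NPM1 has 49 named pseudogenes, and the sources used here do not say how reads matching several copies were assigned. GNL3 (nucleostemin) stood at 81.3% of wild type in H929 protein and 48.2% in OCI protein.

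All 4 RNA polymerase I genes were lower in both lines after protein. The catalytic subunits POLR1A (32.2% and 78.5% of wild type in H929 and OCI) and POLR1B (20.7% and 53.4%) and the nucleolar regulator MYBBP1A (35.7% and 51.0%) were lower than POLR1C, which RNA polymerase III shares. POLR1C had 67.7 FPKM in H929 wild type, 44.2 and 60.3 in knockdown 1 and 2, 31.1 in overexpression and 38.2 in protein. For OCI the values were 72.1 FPKM in wild type, 77.1 and 39.8 in knockdown 1 and 2, 61.0 in overexpression and 66.3 in protein. Its protein change of -0.47 ± 0.37 was near its error (adjusted p = 0.50). Of the polyamine enzymes, ODC1, the decarboxylase that starts the pathway, was listed at 694 FPKM in H929 wild type, 475 and 421 in knockdown 1 and 2, 328 in overexpression and 188 in protein. OCI cells had 732 FPKM as wild type, 465 and 157 in knockdown 1 and 2, 450 with overexpression and 340 with protein. Wild type was the highest library in both lines, followed by knockdown 1 at 68.4% and 63.5% of it (protein change -1.49 ± 0.52, adjusted p = 0.188). SRM, spermidine synthase, was at 69.6% and 53.8% of wild type in the protein libraries.

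**Figure D3:**
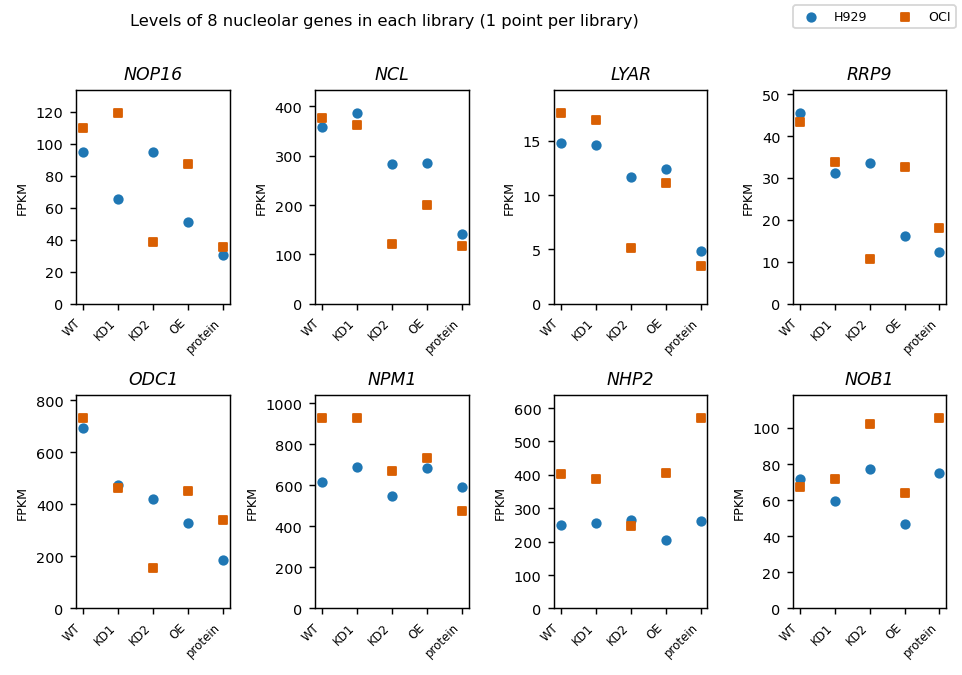
FPKM of 8 of the 40 genes in each library, with circles for H929 and squares for OCI; WT is wild type, KD1 and KD2 the knockdown libraries and OE overexpression. NOP16, NCL and LYAR are lowest in the protein libraries of both lines (30.5 and 35.6 FPKM for NOP16), while NHP2 and NOB1 are highest in OCI protein.

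The overexpression comparison gave lower values in nearly the whole set. Of the 40 genes, 37 were below wild type in both lines, as were 30.6% of all tested genes, with a median change of -0.62 against 0.01 for all tested genes. None of the 40 passed the adjusted threshold, and 0% of all tested genes did. An unadjusted p under 0.05 was reached by 6 of the 40, all lower (2.42% of all tested genes). Those were POLR1B, TSR1, RRP12, DDX21, UTP15 and BYSL. The count is sensitive to single libraries: it was 21 without OCI knockdown 2, 3 without H929 knockdown 1, 2 without either overexpression library, 1 without OCI wild type and 0 without H929 wild type. Shares of all tested genes under these settings are not given here. TSR1, a late factor of the small subunit, was listed at 4.87 FPKM in H929 wild type, 2.93 and 2.36 in knockdown 1 and 2, 2.26 in overexpression and 1.86 in protein. Levels in OCI were 2.47 FPKM (wild type), 2.62 and 1.74 (knockdown 1 and 2), 0.871 (overexpression) and 0.689 (protein). Its overexpression libraries were at 46.5% and 35.2% of wild type (-0.87 ± 0.35, unadjusted p = 0.0328, limma adjusted p = 0.742). UTP15, a processome protein, had 20.6 FPKM in H929 wild type, 12.6 and 16.9 in knockdown 1 and 2, 10.8 in overexpression and 14.7 in protein. OCI wild type had 14.4 FPKM, knockdown 1 and 2 had 14.5 and 6.91, overexpression 8.25 and protein 7.38. In H929 overexpression was thus lower than protein (-0.80 ± 0.35 against wild type, adjusted p = 0.742). BYSL, another small subunit factor, was listed at 43.0 FPKM in H929 wild type, 32.7 and 38.1 in knockdown 1 and 2, 17.8 in overexpression and 14.6 in protein. The OCI levels were 41.2 FPKM in wild type, 36.8 and 19.8 in knockdown 1 and 2, 23.4 in overexpression and 41.1 in protein. Overexpression was at 41.5% and 56.7% of wild type (-1.01 ± 0.45, adjusted p = 0.742). UTP20 (-1.04 ± 0.58), NOP2 (-0.92 ± 0.45) and ODC1 (-0.89 ± 0.52), whose levels are given with the protein comparison, were below wild type in both overexpression libraries too. POLR1B had the lowest overexpression change (-1.35 ± 0.42, unadjusted p = 0.00916, adjusted p = 0.742). It had 49.7 FPKM in H929 wild type, 25.1 and 31.3 in knockdown 1 and 2, 10.5 in overexpression and 10.3 in protein. For OCI the values were 29.8 FPKM in wild type, 28.5 and 17.0 in knockdown 1 and 2, 20.1 in overexpression and 15.9 in protein. The H929 overexpression and protein libraries were nearly equal at 21.0% and 20.7% of wild type, whereas OCI overexpression was at 67.4%.

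The knockdown comparison gave the smallest median of the 3 manipulations, -0.46 against 0.01 for all tested genes. In all 4 knockdown libraries, 19 of the 40 genes were below wild type, as were 14.3% of all tested genes, and 0 were above it in all 4 (13.6%). None passed the adjusted threshold (0% of all tested genes), and ODC1 alone reached an unadjusted p under 0.05 (0.660% of all tested genes with a lower level and 2.10% with a higher one). The median rests largely on OCI knockdown 2, without which it was -0.19, and without OCI knockdown 1 the count at an unadjusted p under 0.05 was 6. That last count is given without the share of all tested genes in the same setting. ODC1 had the largest knockdown change (-1.03 ± 0.45, unadjusted p = 0.0443, limma adjusted p = 0.980) and stood at 68.4% and 60.7% of wild type in H929 knockdown 1 and 2, and at 63.5% and 21.4% in OCI. RRP9 stood at 68.7% and 73.9% in H929 and at 77.7% and 24.9% in OCI (-0.81 ± 0.46, adjusted p = 0.980). Both were thus below wild type in every knockdown library, and lowest in OCI knockdown 2. LAS1L, a subunit of the nuclease that cuts the large subunit precursor, was listed at 46.8 FPKM in H929 wild type, 39.0 and 32.5 in knockdown 1 and 2, 32.9 in overexpression and 24.6 in protein. OCI cells had 42.4 FPKM as wild type, 31.3 and 18.9 in knockdown 1 and 2, 40.1 with overexpression and 26.5 with protein. NOP14 had 56.7 FPKM in H929 wild type, 42.7 and 37.1 in knockdown 1 and 2, 29.98 in overexpression and 15.4 in protein. Levels in OCI were 47.5 FPKM (wild type), 40.3 and 20.9 (knockdown 1 and 2), 34.1 (overexpression) and 29.2 (protein). Both genes were below wild type in every other library of both lines. BOP1, of the PES1 complex, was listed at 47.8 FPKM in H929 wild type, 41.0 and 42.6 in knockdown 1 and 2, 30.8 in overexpression and 29.9 in protein. OCI wild type had 42.4 FPKM, knockdown 1 and 2 had 28.9 and 15.5, overexpression 46.0 and protein 16.2. BOP1, LAS1L and NOP14 had changes of -0.58, -0.58 and -0.59, with standard errors of 0.36, 0.28 and 0.34, and BYSL had -0.43 ± 0.39. The library labelled H929 knockdown 1 adds to these counts although its AIMP1 was at the wild-type level. Without it and without OCI knockdown 2, a setting chosen after the data were seen, the median was -0.22.

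The manipulations were also compared with each other. Knockdown against overexpression asked whether lowering and raising AIMP1 parted these genes. Their median difference was 0.14, and 0 of the 40 passed the threshold (0% of all tested genes), with 0 at an unadjusted p under 0.05 (1.62% of all tested genes lower, 1.30% higher). That median has no stable sign: it was -0.0071 without OCI knockdown 1, -0.0023 without H929 overexpression, 0.37 without OCI overexpression and 0.45 without OCI knockdown 2, where 7 of the 40 were higher at an unadjusted p under 0.05. None of the 40 was lower in every knockdown library than in overexpression (9.59% of all tested genes). NOB1 (0.47 ± 0.23) and TSR1 (0.45 ± 0.30) were higher in every knockdown library than in the overexpression library of the line, as were 9.38% of all tested genes, both with a limma adjusted p of 1. Protein against knockdown and overexpression had a median of -0.41 against 0.11 for all tested genes. Here too 0 of the 40 passed (0% of all tested genes), and 6 had an unadjusted p under 0.05 and were lower (3.72%). That count was 19 without OCI knockdown 2 and 3 without H929 protein, and the median was -0.24 without H929 protein, -0.27 without OCI overexpression and -0.77 without OCI protein. LYAR, TSR1, NOP16, NCL, POLR1B and DDX21 were lower in protein than in every knockdown and overexpression library of their line, as were 6.61% of all tested genes. Of these 6, LYAR had the largest difference, -1.28 ± 0.37 (unadjusted p = 0.00621, adjusted p = 0.198), and then came NOP16 (-1.07 ± 0.39, adjusted p = 0.253), NCL (-0.95 ± 0.37, adjusted p = 0.272) and DDX21 (-0.64 ± 0.27, adjusted p = 0.305). DDX21 was listed at 58.7 FPKM in H929 wild type, 54.7 and 38.3 in knockdown 1 and 2, 39.0 in overexpression and 20.3 in protein. The OCI levels were 71.5 FPKM in wild type, 65.6 and 37.9 in knockdown 1 and 2, 35.0 in overexpression and 34.6 in protein. The gap was wide in H929, and in OCI the overexpression and protein libraries were nearly equal. After rescaling without short RNAs, 14 of 39 passed in this comparison, among 1836 of all genes. For the counts without single libraries in both comparisons, the shares of all tested genes are not given here.

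In the fit over all 10 libraries the median difference between the 2 lines was small, while single genes differed more. In wild type alone, NHP2 had 249 FPKM in H929 and 401 in OCI, NPM1 618 and 928, and POLR1B 49.7 and 29.8. In OCI against H929, 0 of the 40 passed the adjusted threshold, which 12.9% of all tested genes passed, and the median difference was 0.01. With an unadjusted p under 0.05, 2 of the 40 were lower in OCI (13.6% of all tested genes) and 1 was higher (15.8%). The differences ran from -0.55 ± 0.22 for TSR1 to 0.79 ± 0.40 for PPAN, and the smallest adjusted p was 0.0569, for NHP2 (0.66 ± 0.20). NHP2 passed without OCI knockdown 2, where the median was 0.25, and UTP15 passed after rescaling without short RNAs. Line-specific effects of each manipulation were tested in a second model, in which the 2 knockdown pairs supply the spread, with 2 residual degrees of freedom. For protein, 0 of the 40 differed at the adjusted threshold (0.101% of all tested genes), and PPAN alone had an unadjusted p under 0.05, as 6.98% of all genes did (-2.13 in H929 and 0.28 in OCI, unadjusted p = 0.0296, limma adjusted p = 0.700). WDR74 (-1.17 and 0.30, adjusted p = 0.737) and BYSL (-1.50 and -0.00, adjusted p = 0.740) came next. For overexpression (0.00777% of all tested genes) and knockdown (0%), 0 of the 40 differed, also at an unadjusted p under 0.05 (2.32% and 1.26%), with POLR1B the widest at -2.15 in H929 and -0.55 in OCI under overexpression (adjusted p = 1). These counts depend on the knockdown libraries that supply the spread. At an unadjusted p under 0.05 they rose for protein and overexpression without OCI knockdown 1 or 2. They also rose for knockdown without OCI knockdown 1, and fell for protein without either H929 knockdown library. The shares of all tested genes in those settings are not given here, so these moves are not results about the 40. For knockdown, the median difference of -0.24 turned to 0.25 without OCI knockdown 2.

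The levels of the genes spanned a wide range. NPM1 (mean 686 FPKM), NHP2 (325) and NCL (263) were among the highest, with ODC1 and SRM (237), and EBNA1BP2 (1.11), TSR1 (2.27) and FBL (8.66) were among the lowest. By length of the longest coding transcript, 22 of the 40 are short (up to 2489 bases), 9 middle and 9 long (from 4393 bases). In H929 protein their medians were -0.86, -1.39 and -1.42, against 0.23, 0.12 and 0.16 for all tested coding genes of those classes. In OCI protein they were -0.75, -0.79 and -0.88, against 0.22, -0.01 and -0.10. The median of each length class was thus below that of all genes of the class in both lines. Of the 40 genes, 10 hold small nucleolar RNA genes in their introns, led by GNL3 with 6, NOP56 with 5 and NOP58 with 4.

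Other genes of the same pathway were also mostly lower after protein, with medians nearer to wild type than that of the 40. These lists too were chosen with earlier results of these data known. Of all tested genes, 23.7% were lower in both lines after protein, 36.7% were higher and 0.0155% passed the adjusted threshold. Of 49 tested other factors of the small subunit, 36 were lower in both lines after protein and 1 higher, with a median of -0.67 and 0 passing the adjusted threshold. LTV1, which aids export of the small subunit, was listed at 15.2 FPKM in H929 wild type against 5.34 in protein, and in OCI at 17.3 against 6.96 FPKM (-1.28 ± 0.43, limma adjusted p = 0.185). RIOK3, a kinase linked to late small subunit maturation, was higher, with 9.06 and 21.0 FPKM in H929 and 6.62 and 12.7 in OCI. Of 51 other factors of the large subunit, 36 were lower in both lines and 4 higher, with a median of -0.61 and 0 passing. MRTO4, which acts in stalk assembly, had 61.8 FPKM in H929 wild type against 12.1 in protein, and in OCI 68.0 against 30.1 (-1.70 ± 0.63, adjusted p = 0.202). NOP53 was higher in protein, with 149 and 312 FPKM in H929 and 126 and 359 in OCI (1.28 ± 0.36, adjusted p = 0.145). Of 13 other RNA polymerase I genes, 7 were lower in both and 3 higher. POLR1G, a polymerase subunit, had 33.3 FPKM against 6.30 in H929 and 38.6 against 12.2 in OCI. The initiation factor UBTF had 100.02 FPKM against 32.5 in H929 and 77.8 against 37.4 in OCI (-1.32 ± 0.34, adjusted p = 0.135), while TAF1D, of the same initiation machinery, was higher (0.88 ± 0.24, adjusted p = 0.141). Of the 15 genes of the RNA exosome, which trims the precursors, 10 were lower in both lines and 2 higher, with EXOSC2 at -1.28 ± 0.39 (adjusted p = 0.162).

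On the FPKM scale, the 79 genes of cytosolic ribosomal proteins, the products that the nucleolar factors assemble, stood the other way. After protein 75 of the 79 were higher in both lines, as were 36.7% of all tested genes, and 1 was lower, with 0 passing the adjusted threshold. Their medians were 0.78 in H929 protein, 0.72 in OCI protein, 0.75 in OCI knockdown 2 and 0.55 in OCI overexpression, and 0.10 to 0.21 in the other 4 libraries. RPL28 had 1.25 ± 0.28 (limma adjusted p = 0.112) and RPLP1 1.24 ± 0.33 (adjusted p = 0.135). The 1 lower in both lines was RPL6 (-0.16 ± 0.25). In OCI protein, 1 of the 79 genes was at least 1 log2 unit under wild type, at -12.9. The ribosomal protein medians were highest in H929 protein, OCI knockdown 2 and OCI protein. H929 overexpression, in which the 40 genes had a median of -0.84, stood at 0.10. Relative to the median of all tested genes, the median protein change of the 79 was 0.63. Their changes on the TPM scales, on which NHP2, NOP10 and NOB1 reversed, are not given here. Their direction against wild type is therefore stated for FPKM only.

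MYC itself did not follow the set. It was listed at 215 FPKM in H929 wild type, 260 and 248 in knockdown 1 and 2, 195 in overexpression and 131 in protein. For OCI the values were 435 FPKM in wild type, 394 and 633 in knockdown 1 and 2, 642 in overexpression and 783 in protein. MYC was thus lowest in protein in H929 and highest in protein in OCI, whereas the 40 genes were low in both. Of 12 MYC network genes, 6 were higher in both lines after protein (36.7% of all tested genes) and 3 lower (23.7%). The lower ones were MAX (-0.41), MLX (-0.32) and MGA (-0.10). Among the higher ones were MXD3 and MXD4, which compete with MYC for MAX. MXD3 had 8.01 FPKM in H929 wild type against 64.8 in protein, and in OCI 10.5 against 25.2 (2.03 ± 0.59, limma adjusted p = 0.154). MXD4 had 8.90 FPKM against 28.0 in H929 and 12.2 against 24.0 in OCI (1.24 ± 0.38, adjusted p = 0.164). Neither passed the threshold. Of 30 MYC target genes outside the nucleolus, 19 were lower in both lines after protein (23.7% of all tested genes) and 2 higher (36.7%). Their median was -0.57, with 0 passing (0.0155% of all tested genes). TFRC, the transferrin receptor, had 76.8 FPKM in H929 wild type against 29.1 in protein, and in OCI 174 against 27.3 (adjusted p = 0.148). SHMT2, a mitochondrial enzyme of serine metabolism, was higher (1.34 ± 0.32, adjusted p = 0.124).

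Of 8 other polyamine genes, the synthetic enzymes SMS and AMD1 were lower in both protein libraries, as ODC1 and SRM were, and 4 genes were higher. These shares are near those of all tested genes, of which 23.7% were lower in both lines and 36.7% higher. SMS, spermine synthase, had 66.3 FPKM in H929 wild type against 42.1 in protein, and in OCI 65.0 against 31.3 (-0.84 ± 0.28, limma adjusted p = 0.178). AMD1, which supplies the aminopropyl donor, had 34.4 FPKM against 22.7 in H929 and 56.8 against 27.4 in OCI. SAT1, which acetylates polyamines for breakdown and export, was listed at 5.97 FPKM in H929 wild type, 12.8 and 7.67 in knockdown 1 and 2, 11.4 in overexpression and 56.1 in protein. OCI cells had 10.6 FPKM as wild type, 10.3 and 33.0 in knockdown 1 and 2, 19.0 with overexpression and 17.5 with protein. The oxidases SMOX (1.37 ± 0.51) and PAOX (1.17 ± 0.41) were higher too, with adjusted p-values of 0.200 and 0.188, and that of SAT1 was 0.193 (1.85 ± 0.66). OAZ1, the antizyme that leads ODC1 to breakdown, was the other higher gene, with 891 FPKM against 1389 in H929 and 1029 against 1932 in OCI (0.77 ± 0.27, adjusted p = 0.185). None of the 8 passed the threshold.

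**Figure D4:**
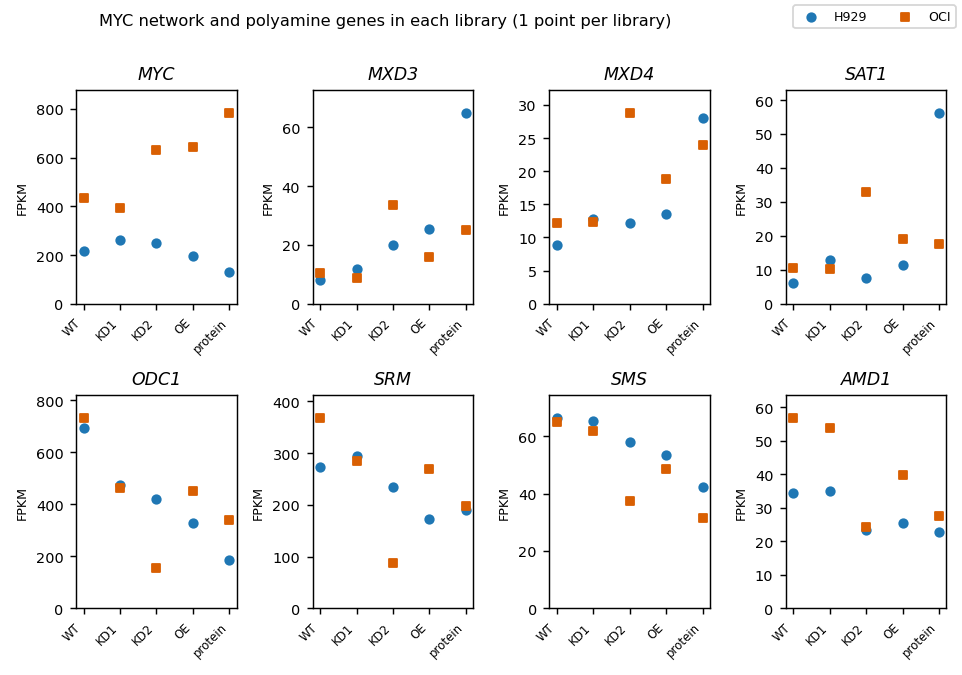
FPKM of MYC, its network genes MXD3 and MXD4 and 5 polyamine genes in each library, with circles for H929 and squares for OCI; WT is wild type, KD1 and KD2 the knockdown libraries and OE overexpression. MYC stands at 131 FPKM in H929 protein and at 783 in OCI protein, while ODC1 is below wild type in every other library.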

How the data were processed

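Per the labels' protocols, 10 poly(A) RNA libraries underwent paired-end sequencing (Illumina NovaSeq). The authors deposited FPKM values for 58229 genes in 1 table. Per the submitters' processing notes, Bowtie 0.12.2, StringTie 1.3.0 and HISAT2 2.0 were used, with no role stated. The notes also name the mouse build mm8, while the identifiers are human, so no coordinates are taken from the table. Strand use and the treatment of multiply matching reads are not given in the sources used here, so values of genes with pseudogenes, overlapping or antisense partners are uncertain. No counts were used, so absolute depth is unknown. Relative depth was read from the steps of genes with a mean under 0.1 FPKM.

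Values were taken as log2(FPKM + 1), with a pseudocount of 1, for 12872 genes whose mean reached 1 FPKM. limma 3.58.1 in R 4.3.3 fitted cell line and manipulation to the 10 libraries, with 5 residual degrees of freedom, a trended prior, two-sided p-values and Benjamini-Hochberg adjustment over all tested genes. Effects by line used 8 group means. The procedure was checked on simulated data. Libraries are the replicates, and the labels do not say whether they came from separate cultures, so the spread may be technical.

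The 40 genes and all other lists were chosen with earlier results of these data known. Named genes are the most abundant gene of each role and up to 6 per direction and comparison with the same sign in every library, ranked by their smallest change; other genes are given by role. Of other lists, up to 3 per direction are named in the protein comparison. Gene symbols came from a table of identifiers, and promoters from RefSeq. Alternatives were another pseudocount (0.1), no filter, a mean of at least 5 FPKM, median centring, quantile normalization, 2 rescalings to TPM, other moderation, no line term, group means, leaving out libraries and a replicate block.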

Additional observations from a re-analysis of the deposited data

How the results depend on the processing

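The medians of the 40 genes for protein, overexpression and knockdown against wild type and for protein against knockdown and overexpression kept their direction under every alternative tried, while other medians and counts of passing genes did not. Knockdown against overexpression (0.14) ran from -0.0071 to 0.45 when single libraries were left out. OCI against H929 (0.01) ran from -0.11 to 0.25 on leaving out libraries and was -0.020 with quantile normalization, -0.29 with TPM without short RNAs and -0.13 with TPM of coding genes. The overexpression effect by line (0.44) was -0.11 with TPM without short RNAs, and the knockdown effect by line (-0.24) was 0.25 without OCI knockdown 2. With TPM without short RNAs, 32 of 39 genes passed for protein against wild type (median -1.92), 14 for protein against knockdown and overexpression (median -1.22) and 1 for OCI against H929. EBNA1BP2 left that test under its filter. Leaving out single libraries gave 0 to 13 for protein against wild type and 0 to 1 for OCI against H929, both highest without OCI knockdown 2. Without H929 knockdown 1 and OCI knockdown 2, 1 gene passed for OCI against H929. The cause was not tested. Counts of all genes passing are given above for both protein comparisons without short RNAs and for protein against wild type without OCI knockdown 2. For the other counts they are not given, so those counts are not results about the 40. In the fit over all 10 libraries, 12.9% of all tested genes passed for OCI against H929. The protein changes of NOP10 and NHP2 reversed to -0.072 and -0.046 with quantile normalization, to -0.87 and -0.76 without short RNAs and to -0.25 and -0.14 with TPM of coding genes, a setting added after the data were seen. NOB1 reversed to -0.69 and -0.083 on the same 2 scales. With a replicate block, 0 of the 40 passed in any of the 6 comparisons and the protein median was -0.92. Knockdown libraries of the same number did not deviate together (r = 0.0757 across genes). With 1 library of each number per line, this cannot tell whether the numbers pair them.

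Each group but knockdown had 1 library per line, and depth was unknown in absolute terms and 27.6% to 100% in relative terms.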

Other observations

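RNAs of the nucleolus itself, chosen after their values were seen, were listed far above the mRNAs of the 40 genes, although poly(A) RNA was selected. SNORD3A, the U3 RNA that RRP9 binds, stood at 5.58 times wild type in H929 protein and 2.43 times in OCI protein. SNORA73A stood at 8.59 and 3.30 times wild type, SNORA73B at 8.90 and 3.40 times, and RMRP, which cuts the ribosomal RNA precursor, at 2.31 and 2.28 times. The protein libraries were not alone in OCI. RMRP was listed at 303748 FPKM in OCI wild type, 693032 in protein and 865338 in overexpression, and SNORA73B at 28826 FPKM in wild type, 98030 in protein, 94308 in overexpression and 81711 in knockdown 2. SNORD118, SNORD13 and SNORD22 were listed at 0 in all 10 libraries. The FPKM sum over all genes was 10598232 in H929 protein against 3437320 in H929 wild type, and 3837398 against 4441058 in OCI. The 5 listed short RNAs held 78.1% and 72.2% of these sums in H929, and 49.6% and 75.6% in OCI. Whether the rises were particular to nucleolar RNAs was not tested. FPKM of RNAs shorter than the fragments depend on the length correction, so their levels are not compared with those of mRNAs in other terms, and no test was made.

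CDKN1A, a cell cycle inhibitor, was listed at 0.630 FPKM in H929 wild type and 3.72 in protein, and at 4.26 and 17.8 FPKM in OCI, with 16.5 FPKM in OCI knockdown 2 (protein change 1.69 ± 0.59, limma adjusted p = 0.188).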
